A study of Mus musculus with 2 samples.

Results

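The T cell receptor chain probes of the array were taken as the non-control probes whose gene name, in the scanner tables of both arrays, begins with a symbol stem of a T cell receptor alpha, beta, gamma or delta gene (Tcra, Trav, Traj, Trac, Tcrb, Trbv, Trbj, Trbc, Tcrg, Trgv, Trgc, Tcrd, Trdv or Trdc). There were 12 such probes among 56605, of which 11 carried an alpha or beta name (10 alpha, 1 beta), 1 carried a gamma name and none a delta name, and 5 were well above background on at least 1 array. These names cover little of the receptor loci. A further 118 probes have another name, mostly a transcript number, while their description names a T cell receptor alpha, beta, gamma or delta chain. They are reported beside the 12 as a second set, chosen after their values were seen, and are called by the segment in the description ("gamma variable 5"). Membership rested on names and descriptions and used no measured value.

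Total RNA came from cells of the Peyer's patches of C57BL/6 mice with an S100A4-GFP transgene, in which GFP marks cells that express S100A4, a calcium-binding protein. The patches, lymphoid follicles of the small intestine, were digested with dispase II, collagenase D and DNase I, and S100A4-positive and S100A4-negative cells were sorted. Both groups come from reporter mice, and the age, sex, number and pooling of the animals are not given in the sources used here. Each group is 1 sample on 1 one-colour Cy3 array of 60-base probes, so no difference below could be checked in replicates and no p-value is given. The question was how expression in the S100A4-positive cells differs from that in the S100A4-negative cells. S100a4 itself had a signal of 119341 in the positive and 1057 in the negative sample, a log2 difference of 7.45. The share of the 59305 non-control spots well above background was 52.3% on the positive and 53.3% on the negative array, and none was saturated.

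Each signal below is the scanner's background-subtracted intensity. Differences are log2, positive minus negative, after each array was set against its own 75th percentile (a signal of 287.3 on the positive and 445.9 on the negative array), so a raw signal can be lower on the positive array while the difference is above 0. The ± after a difference is the scanner software's error for the pair of spots. It does not hold the spread that other mice or another sort would add. A probe well above background on 1 array alone has only a bound on the other. Its fold is then given as "at least", against the lowest signal well above background there. That lowest signal was 15.7 on the positive and 16.1 on the negative array. If the dim probe's own signal is higher, it is used instead and the measured fold is given. An "at least" fold leaves out the spot error, so it is not a strict limit. In place of a test, a probe is counted as lower or higher where it passes 2-fold, at its bound if seen on 1 array. In these sorted samples, fewer cells of a type and less RNA per cell cannot be told apart.

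A T cell receptor is a pair of chains, alpha with beta on most T cells or gamma with delta on a smaller lineage. Each chain joins a variable segment, chosen from many by V(D)J recombination, to a joining segment and to one of a few constant regions. A probe in a variable segment reads only the cells that chose that segment. A probe in a constant region reads transcripts that carry that region, whatever their variable segment, including those from loci not yet fully rearranged. In Peyer's patches, alpha-beta T cells include the follicular helper cells that assist germinal centre B cells, and gamma-delta T cells include innate-like cells that make IL-17.

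The probe sequences below are those on which the results turn, as printed in the array files, 5′ to 3′. First come the 5 named probes seen on at least 1 array, with their mm9 positions (plus strand). The files leave the Tcrb-J probe unmapped.
Trav9n-2 (chr14:53540843-53540902): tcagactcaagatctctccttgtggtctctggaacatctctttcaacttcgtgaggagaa
Trav14n-1 (chr14:53476381-53476440): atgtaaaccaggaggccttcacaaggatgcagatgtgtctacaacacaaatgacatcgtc
Trav6-3 (chr14:54050372-54050431): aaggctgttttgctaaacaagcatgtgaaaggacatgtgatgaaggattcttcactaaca
Tcrb-J: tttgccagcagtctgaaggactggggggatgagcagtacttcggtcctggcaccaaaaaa
Tcrg-V1 (chr13:19443911-19443970): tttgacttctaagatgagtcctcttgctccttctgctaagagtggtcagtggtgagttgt
Then come 4 described probes, the alpha constant probe as the one with the lowest difference and those of gamma variable 5, gamma variable 6 and delta variable 4 as the gamma-delta probes seen on the positive array alone. The 60 bases of the alpha constant probe are placed across 900 bases of the genome.
Alpha constant (chr14:54841802-54842701): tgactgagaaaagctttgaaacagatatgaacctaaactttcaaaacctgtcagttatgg
Gamma variable 5 (chr13:19284529-19284588): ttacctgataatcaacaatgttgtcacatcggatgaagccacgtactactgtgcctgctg
Gamma variable 6 (chr13:19282709-19282768): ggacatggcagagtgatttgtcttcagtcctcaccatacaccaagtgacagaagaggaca
Delta variable 4 (chr14:54695130-54695189): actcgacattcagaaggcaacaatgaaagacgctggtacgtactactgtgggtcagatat

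Among the 12 named probes, 1 alpha-beta probe, Tcrb-J, was at least 2-fold lower in the S100A4-positive sample, no probe passed 2-fold upwards, and the single gamma probe lay just under 2-fold lower. Tcrb-J, a probe of a rearranged beta variable region, had a signal of 8.20 in the positive sample, not well above background, against 84.0 in the negative sample, and was at least 3.44-fold lower. Trav9n-2, an alpha variable probe, read 4.08 in the positive and 27.6 in the negative sample, which is at least 1.13-fold. Trav14n-1, another alpha variable probe, read 10.7 in the positive and 41.5 in the negative sample, which is at least 1.70-fold. All 3 were well above background on the negative array alone, so they passed the detection filter through the array where they are high.

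The other 2 named probes with signal were measured on both arrays and lay within 2-fold. Trav6-3 read 47.1 in the positive and 43.8 in the negative sample, a difference of 0.74 ± 0.27, which became -1.77 on the spike-in scale. Tcrg-V1 read 47.2 in the positive and 138 in the negative sample, a difference of -0.91 ± 0.23. The remaining 7 probes (both Trav3-4 probes, Trav9d-4, Trav7n-5, Trav14d-3-dv8, Trav12-1 and Tcra) read 3.34 to 3.85 in the positive and 3.19 to 5.88 in the negative sample. None of the 7 was well above background on either array, so their values have no order. The rule's comparison of alpha-beta with gamma-delta chains therefore rests on 4 probes against 1: the median difference was -1.72 for alpha-beta, or -0.47 at bounds, and -0.91 for gamma-delta, against 0.07 over all 31587 detected probes. Of all detected probes, 14.8% were at least 2-fold lower and 20.9% at least 2-fold higher. The order of the medians turned round at bounds, with normexp background correction, with probes detected on both arrays and with no filter on dim probes.

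For 6 of the 12 named probes the array also holds a described probe with the same segment name, at another position. The Tcrg-V1 probe lies 11.75 kb from the probe of gamma variable 1 and 183 bases from a probe of gamma constant 4. The gamma variable 1 probe read 30.3 in the positive and 174 in the negative sample, a difference of -1.89 ± 0.28. After scaling, it and Tcrg-V1 were thus both lower in the positive sample. The gamma constant 4 probe next to Tcrg-V1 read 561 in the positive and 591 in the negative sample, a difference of 0.56 ± 0.20.

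For Trav14d-3-dv8, a segment that alpha and delta chains can both use, the named probe was not detected, whereas the described probe 3.763 kb away read 3.67 in the positive and 76.5 in the negative sample, at least 3.13-fold lower. The Trav12-1 probe, also undetected, is placed 400 bases from the probe of alpha variable 12N-1 and 693.12 kb or more from those of alpha variable 12-1. Trav9n-2 lies 70 bases from the probe of alpha variable 9N-3, which read 4.12 in the positive and 87.9 in the negative sample and was at least 3.60-fold lower. For Trav6-3 the described probe, 598 bases away, was well above background on neither array. A named probe without signal thus does not mean that its segment lacks signal at another probe.

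The described probes gave the fuller picture of the alpha and beta chains, most of whose detected probes were well above background in the S100A4-negative sample alone. Of 99 alpha-beta probes, 58 (58.6%) were well above background on the negative array alone and none on the positive array alone, 15 (15.2%) on both and 26 on neither. Over all 56605 non-control probes these shares were 5.57% on the negative array alone, 4.62% on the positive array alone, 45.6% on both and 44.2% on neither. Of the 73 detected alpha-beta probes, 31 were at least 2-fold lower and 1 was at least 2-fold higher, beside 14.8% and 20.9% of all detected probes. Since 58 of the 73 were detected only where they are high, the counts describe these arrays and support nothing further. Of the 15 measured on both arrays, 3 were at least 2-fold lower and 1 at least 2-fold higher, beside 14% and 17.3% of all probes measured on both. The median over the 73 was -2.50, or -0.74 at bounds.

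Of 25 beta variable probes, 20 were detected, 18 of them on the negative array alone, where they are high. Of the 20, 19 were at least 2-fold lower in the positive sample and that of beta variable 26 was at least 1.81-fold lower. The median difference over the 20 was -4.06, or -3.11 at bounds. Signals of the 25 ran from 3.36 to 53.3 in the positive and from 6.34 to 627 in the negative sample. Beta variable 13-2, which is measured on both arrays and belongs to the segments long known as V beta 8, read 26.7 in the positive and 627 in the negative sample and was 15.1-fold lower. The related beta variable 13-1 read 53.3 in the positive and 283 in the negative sample, a 3.42-fold difference. Beta variable 5, seen on the negative array alone, read 17.2 in the positive and 473 in the negative sample. Its measured difference was -4.15 ± 0.35, or 17.7-fold lower. Beta variable 3, which read 14.4 in the positive and 442 in the negative sample, was at least 18.1-fold lower. The 5 beta variable probes without detection on either array were those of segments 21, 24, V23 and 30, the last with both of its probes.

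The alpha constant region, shared by alpha chains of every rearrangement, read 3.92 in the positive and 660 in the negative sample, at least 27.0-fold lower. Alpha variable signals were at most 80.9 in the positive and 116 in the negative sample. Of 65 described alpha variable probes, 38 were well above background on the negative array alone, 7 on both and 20 on neither. Of the 45 detected, 9 (20%) were at least 2-fold lower, beside 14.8% of all detected probes. As 38 of the 45 were detected only where they are high, that count supports nothing further. Among the brightest seen on the negative array alone were alpha variable 3D-3 (at least 3.64-fold lower) and 9N-3. A probe of a nonproductive alpha mRNA (clone TA26) read 3.65 in the positive and 130 in the negative sample and was at least 5.32-fold lower. The 7 measured on both arrays ranged from -0.64 for alpha variable 7D-3 to 1.08 ± 0.33 for alpha variable 5-1, which read 42.2 in the positive and 31.0 in the negative sample and was the 1 alpha-beta probe past 2-fold upwards. On the spike-in scale alpha variable 5-1 was at -1.43.

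Variable segments of the alpha locus exist in near copies, and 9 pairs of described probes, all of alpha variable segments, had sequences at least 80% identical. The closest, those of alpha variable 6N-6 and 6-6, were 96.7% identical and were both seen on the negative array alone. Whether a probe also reads its near copy was not tested, so values of such pairs are uncertain as to which segment was read. None of the 5 detected named probes shared more than 55% of its bases with another T cell receptor chain probe. Only probes of the array were compared with each other. Whether a named probe also reads a near copy of its segment was not tested.

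The beta constant regions differed from the beta variable segments. Their 4 probes, 2 for each region, were bright on both arrays, and all lay within 2-fold. The beta constant region 1 probes read 3356 and 10837 in the positive sample against 6475 and 19091 in the negative sample, with differences of -0.31 ± 0.20 and -0.18 ± 0.20. The beta constant 2 probes read 8066 and 11033 in the positive sample against 11524 and 19308 in the negative sample, with differences of 0.12 ± 0.20 and -0.17 ± 0.20. Of the 4 differences, 3 were smaller than their spot error, and 1 beta constant 2 probe had the other sign. That probe was at -0.08 with quantile normalization and in the deposited values, where all 4 had the same sign. With normexp it was at 0.39, so no direction is given for these regions. With no scaling between arrays the 4 lay between -0.95 and -0.51, and on the spike-in scale between -2.82 and -2.39. The coding parts of the beta constant regions are similar in sequence, so their values are uncertain as to which region was read. A beta joining region clone on the same chromosome read 43.1 in the positive and 61.3 in the negative sample, a difference of 0.13 ± 0.26. Another described beta chain probe, 2689 bases from a beta constant region 1 probe, was lower. It read 96.0 in the positive and 400 in the negative sample, a difference of -1.43 ± 0.21.

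The gamma and delta chain probes had differences of both signs. Of the 19 described gamma-delta probes, 5 were well above background on the negative array alone, 3 on the positive array alone, 7 on both and 4 on neither. Among the 15 detected, 3 (20%) were at least 2-fold lower and 3 (20%) at least 2-fold higher. Both shares are near those of all detected probes, 14.8% and 20.9%. The 3 higher probes were detected only where they are high, so the counts describe these arrays and support nothing further. Of the 7 measured on both arrays, 2 were at least 2-fold lower and 0 at least 2-fold higher, beside 14% and 17.3% of all probes measured on both. The median over the 15 was -0.48, against -2.50 for alpha-beta, a gap of 2.02. The gap was 0.74 at bounds, 0.60 over probes measured on both arrays and 0.49 with normexp correction.

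The 3 gamma-delta probes seen on the positive array alone were those of gamma variable 5, gamma variable 6 and delta variable 4. In mice the chains of gamma variable 5 and 6 are known to pair with that of delta variable 4 in gamma-delta T cells of the epidermis and of mucosal tissues. Gamma variable 5 read 299 in the positive and 5.31 in the negative sample and was at least 28.7-fold higher. Delta variable 4 read 61.4 in the positive and 3.61 in the negative sample, at least 5.90-fold higher. Gamma variable 6 read 37.4 in the positive and 7.09 in the negative sample, at least 3.59-fold higher. On the spike-in scale, 1 gamma-delta probe was counted as at least 2-fold higher.

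Gamma variable segments 7, 3 and 1 were lower. Gamma variable 7, used by many gamma-delta T cells of the gut epithelium, read 11.7 in the positive and 162 in the negative sample and was at least 6.64-fold lower. Gamma variable 3 read 36.2 in the positive and 151 in the negative sample, a difference of -1.42 ± 0.25, and gamma variable 1 was 3.70-fold lower. Gamma variable 4 read 3.40 in the positive and 17.1 in the negative sample, and its floor on the positive array leaves no bound on the fold. On the delta side, both probes of delta variable 2-2 were seen on the negative array alone (at least 1.74-fold lower at one, with no bound on the fold at the other), and delta variable 5 was at least 1.19-fold lower at the 1 of its 2 probes that was detected. Delta variable 1 was detected on neither array.

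The 4 constant region probes of the gamma locus had differences above 0, all within 2-fold. Gamma constant 1 read 2309 in the positive and 1829 in the negative sample, a difference of 0.97 ± 0.20, and gamma constant 3 read 3204 in the positive and 2561 in the negative sample, a difference of 0.96 ± 0.20. The gamma constant 4 probes were at 0.42 ± 0.21 and 0.56 ± 0.20. This direction held under quantile normalization, the deposited values and normexp, but gamma constant 4 turned to -0.21 and -0.08 with no scaling, and all 4 probes lay between -2.08 and -1.54 on the spike-in scale. Gamma constant 1 and 3 are similar genes, so their values may include each other's transcripts. The delta constant region, shared by all delta chains, read 75.5 in the positive and 225 in the negative sample, a difference of -0.94 ± 0.22.

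Genes whose products work with the receptor were read by gene, at the brightest detected probe of each. Over all 20545 detected gene names, 15.7% were at least 2-fold lower and 21% at least 2-fold higher. Of 14 genes of the CD3 chains and receptor signalling, 8 were lower and 1 was higher, with a median of -2.36. Cd3e, a CD3 chain needed for surface receptors of both lineages, read 361 in the positive and 8496 in the negative sample, a difference of -3.92 ± 0.20, and Cd3g and Cd3d were at -3.31 and -3.23. The kinase genes did not move alike, with Lck, which starts receptor signalling, at -2.65 and Zap70, which carries it on, at 0.42. The 1 higher gene was Ptcra, the pre-T cell receptor alpha chain that pairs with beta before alpha is rearranged and is also transcribed in plasmacytoid dendritic cells; it read 150 in the positive and 3.59 in the negative sample and was at least 14.4-fold higher. Dntt, the enzyme that adds bases at V(D)J junctions, read 5514 in the positive and 90.6 in the negative sample, 94.5-fold higher, while Rag1 and Rag2, which cut the segments, were well above background on neither array.

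Of 5 detected genes of alpha-beta T cells, the thymocyte and T cell gene Themis was at least 6.31-fold lower and the costimulator gene Cd28 was at -2.85, while the coreceptor genes Cd4 and Cd8a were at 0.27 and 0.32 and Cd8b1, the CD8 beta chain, was at 2.59. Of 10 genes of gamma-delta and innate-like T cells, which innate lymphoid cells largely share, 6 were higher and 1, Blk, was lower, with a median of 1.39. Il23r, a chain of the IL-23 receptor, read 2133 in the positive and 16.6 in the negative sample, where it was not well above background. Its measured difference was 7.64 ± 0.42, or 199.7-fold higher. Cd163l1, known from gamma-delta T cells, was at 4.42 and Zbtb16, which encodes the innate-like T cell factor PLZF, at 4.28. Sox13, a gamma-delta lineage factor gene, was at 0.07. Which cells the transcripts of the genes in these lists, and of Ptcra and Dntt, came from was not tested.

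Markers of other cell types moved with the samples. All 6 B cell genes were lower, with a median of -5.71 and a summed scaled signal of 19.3 in the positive and 388 in the negative sample. All 7 mononuclear phagocyte genes were higher, with a median of 6.36 and sums of 228 in the positive and 6.62 in the negative sample. Of 5 epithelial genes 4 were lower, with sums of 1.69 in the positive and 19.3 in the negative sample. Spots not above background carry surrogate values, so a sum above 0 does not show that a cell type was present. The part of these cell types in the differences of the T cell receptor chain probes was not tested.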

How the data were processed

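The authors labelled total RNA with Cy3 (Low input Quick Amp, per the labels' protocols) and hybridised each group's sample to an Agilent array. The deposited intensities come, per the file headers, from Agilent Feature Extraction 10.7.1.1, background-subtracted and detrended, with surrogates for spots not above background, on build mm9. Version 9.5.1.1 stands in the submitters' processing notes. The deposited 0 or 1 flag columns were used as given. The deposited value table, in intensities of unstated normalization, was an alternative only; both columns are linear and not centred.

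Spots were put on the log2 scale, set against the 75th percentile of 59305 non-control spots and averaged by probe, without control and outlier spots. A bound sets the bright value against the dim array's lowest value well above background, or the dim probe's own if that is higher. With 1 array per group no test was possible. The number of arrays limits the precision; the median spot error of a difference was 0.21. Of 11 names, 9 were RefSeq symbols (GRCm38 table, names alone), and no accession matched.

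Named are all detected members, constant-region and gamma or delta probes, and in alpha and beta the 4 largest differences each way on both arrays and the 3 brightest seen on 1 array; the probes set beside members were chosen after their values were seen. Some that the rule takes are given only in ranges. Members and lists were chosen with earlier results of these data known. One gene of the lists is not reported here and is left out of its list's counts. Alternatives used limma 3.58.1 in R 4.3.3 (normexp with an offset of 50, quantile); other steps used Python 3.11.15, numpy 2.4.6 and pandas 2.3.3, tested on simulated data.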

Additional observations from a re-analysis of the deposited data

How the results depend on the processing

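No paired analysis was possible because each group has 1 sample. Scaling on the 7 E1A spike-in probes detected on both arrays (3.66-fold brighter on the positive array) shifted all probes by -2.51, and no scaling by -0.63. For the named probes, the alpha-beta median of -1.72 was 0.027, the other direction, with normexp, 0.74 over the 1 probe detected on both arrays and 0.64 with no filter, where undetected probes enter. It was -2.16 with quantile normalization, -2.17 in the deposited table, -4.23 on the spike-in scale, -2.36 unscaled, -0.47 at bounds and -1.36 as a mean. The gamma-delta value of -0.91 was -0.37 with normexp, -1.14 with quantile normalization and in the deposited table, -3.42 on the spike-in scale and -1.55 unscaled; it passed 2-fold (1 probe lower) in the last 4. The gap of 0.81 between them was -0.40 with normexp, 1.02 with quantile normalization, 1.03 in the deposited table, -1.65 over probes on both arrays, -1.55 with no filter, -0.44 at bounds and 0.45 as means. The 1 lower alpha-beta probe was 0 with normexp and over probes on both arrays, 2 with quantile normalization, in the deposited table and unscaled, and 4 on the spike-in scale.

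For the described probes, the alpha-beta median of -2.50 was -0.24 with normexp, -2.95 with quantile normalization, -2.96 in the deposited table, -5.01 on the spike-in scale, -3.14 unscaled, -0.17 over probes on both arrays, -1.96 with no filter and -0.74 at bounds. The gamma-delta median of -0.48 was 0.24 with normexp, -0.91 with quantile normalization, -0.92 in the deposited table, -2.99 on the spike-in scale, -1.11 unscaled, 0.42 over probes on both arrays, -0.18 with no filter, 0 at bounds and 0.21 as a mean. The gap of 2.02 was 0.49 with normexp, 0.60 on both arrays, 1.78 with no filter, 0.74 at bounds and 2.65 as means. The 31 lower alpha-beta probes were 15 with normexp, 73 on the spike-in scale, 50 unscaled and 3 on both arrays; the 1 higher was 0 with normexp, quantile normalization, the deposited table, the spike-in scale and no scaling, and 5 with no filter. The 3 lower gamma-delta probes were 1 with normexp, 5 with quantile normalization, in the deposited table and unscaled, and 12 on the spike-in scale, and the 3 higher were 1 on the spike-in scale and 0 on both arrays.

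Of 41 single probes, those with a measured difference past 2-fold, bounds aside, that changed sign were Trav9n-2 (0.11), delta variable 2-2 (0.11 at 1 probe) and gamma variable 4 (0.013) with normexp, whose offset exceeds such signals, and alpha variable 5-1 (-1.43) on the spike-in scale. Low signal limits the precision here: 7 of the 12 named probes were detected on neither array.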
